A study of Mus musculus with 6 samples.

Results

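The genes described here encode the folding machinery of the endoplasmic reticulum (ER) and the unfolded protein response that adjusts it. They were chosen by symbol from a list built on function: stress sensors, targets of the transcription factors XBP1 and ATF6, ER chaperones, disulfide isomerases and components of ER-associated degradation. All 36 listed symbols were present among the 23337 genes of the deposited table, and all 36 passed the filter on low values (on average 10 or more normalized counts per library), as did 13671 genes in all. The RNA came from mouse basal cell carcinoma, from cells isolated out of ear epidermis 6 weeks after tamoxifen, which the mice received when 4 weeks old. Both groups carried R26-SmoM2/+, an activated Smoothened that drives Hedgehog signalling, and K14CreER, a tamoxifen-inducible Cre under the keratin 14 promoter, which is active in basal keratinocytes. The 3 wild-type libraries had no floxed Yap allele named in their labels, and the 3 knockout libraries came from Yapfl/fl mice. The labels do not say whether a library came from 1 animal or a pool, so the tests measure the spread between these libraries, which may be technical.

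Yap1 had 5573 to 6004 normalized counts in wild type and 591 to 1764 in knockout, so transcript remained in each knockout library, most in library 3. Keratin and Hedgehog markers of the labelled cells were abundant: Krt5 had 223225 to 347189 and Gli1 13955 to 19838 normalized counts. Recovered reads ran from 15405490 to 25260431 per library. The label codes form 2 series, DM22 (libraries 1 and 2 of each group) and DM24 (library 3 of each group), which also differed in sex transcripts (Xist 8.62 to 15.1 against 58654 and 59594 normalized counts) and in depth, with the 2 lowest totals in DM24. Inside DM22 the 2 knockout codes are consecutive, as are the 2 wild-type codes, so genotype there cannot be told apart from the order of the codes. The sources used here do not say what the codes stand for, so effects of sex, of depth and of whatever else the codes mark cannot be told apart.

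Proteins that enter the secretory pathway fold in the ER lumen with the help of BiP (Hspa5), GRP94 (Hsp90b1), the lectin chaperones calreticulin and calnexin and the disulfide isomerases, and proteins that fail to fold are moved back to the cytosol for degradation. When unfolded proteins accumulate, BiP leaves the luminal domains of 3 sensors. IRE1 (Ern1) splices Xbp1 mRNA, ATF6 is cut to release a transcription factor, and PERK (Eif2ak3) phosphorylates eIF2alpha and slows translation. XBP1 and ATF6 then raise chaperone and degradation genes, partly through ER stress response elements in their promoters, while GADD34 (Ppp1r15a) brings eIF2alpha phosphatase activity back. In epidermis, differentiating keratinocytes and sebocytes are cells with heavy secretory or lipid-synthetic demands. Counts per gene do not separate spliced from unspliced Xbp1, nor do they show cleavage of ATF6 or phosphorylation of PERK, so the values below describe transcript levels.

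The elements are shown first because some of the XBP1 and ATF6 targets share them in sequence. The list was built partly on such targets, so a share above that of all windows is no independent result. RefSeq promoter windows (300 bases, from 250 before to 50 after the start site, GRCm38.p6) were held for 30 of the 36 genes, all but Atf6, Hyou1, Manf, Derl1, Sec61a1 and Ppp1r15b. The ER stress response element was searched as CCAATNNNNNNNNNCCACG on both strands. It was present in 9 of the 30 genes, counted by gene, against 39 of 32851 promoter windows in the table (0.119%), counted by window. The second element (ATTGG, any 1 base, CCACG), which shares the CCACG end, was in 2 of the 30 (Herpud1, and Dnajb11 after its start site) and in 0.0365% of all windows. A match describes letters only and does not show that a factor bound there. The sequences below read 5′ to 3′ on the strand of the gene, with 5 bases on each side and the element in capitals, so an element that lies on the opposite strand starts with CGTGG.
Hspa5, chr2:34772020-34772048, plus strand: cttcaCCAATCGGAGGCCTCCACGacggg
Hsp90b1, distal, chr10:86705633-86705661, minus strand: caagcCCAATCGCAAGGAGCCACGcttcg
Hsp90b1, proximal, chr10:86705528-86705556, minus strand: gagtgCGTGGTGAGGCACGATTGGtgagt
Calr, chr8:84847070-84847098, minus strand: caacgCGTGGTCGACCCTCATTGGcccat
Canx, chr11:50325795-50325823, minus strand: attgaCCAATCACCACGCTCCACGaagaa
Pdia6, chr12:17266486-17266514, plus strand: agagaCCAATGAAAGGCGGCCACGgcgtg
Dnajc3, chr14:118937822-118937850, plus strand: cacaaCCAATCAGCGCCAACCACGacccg
Creld2, chr15:88819515-88819543, plus strand: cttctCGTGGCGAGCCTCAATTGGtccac
Syvn1, chr19:6046527-6046555, plus strand: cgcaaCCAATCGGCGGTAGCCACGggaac
Derl3, chr10:75893237-75893265, plus strand: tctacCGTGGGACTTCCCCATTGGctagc
Herpud1 (second element), chr8:94386372-94386392, plus strand: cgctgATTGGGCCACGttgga

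**Figure D1:**
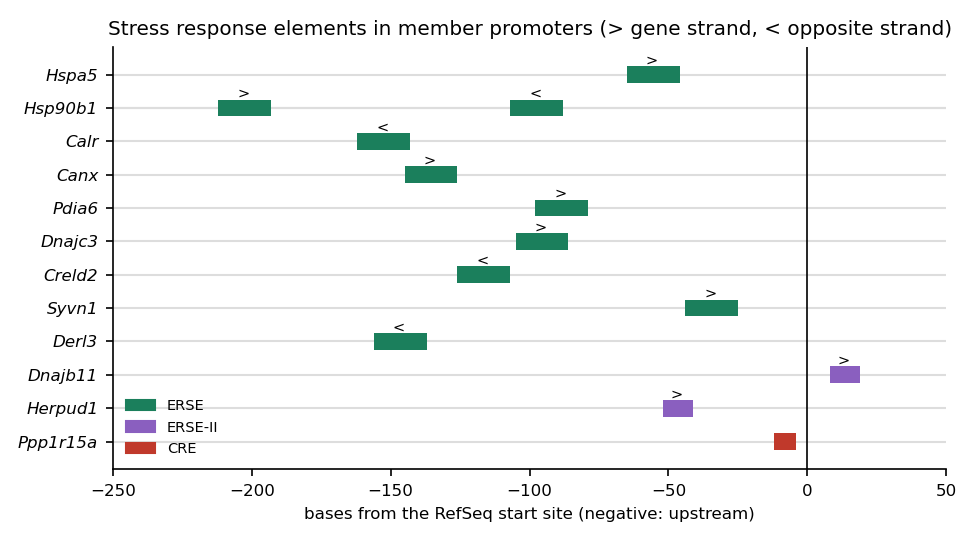
Positions of the ER stress response element (ERSE), the second element (ERSE-II) and the cyclic AMP response element (CRE) in the RefSeq promoter windows of 12 genes; the horizontal axis is the distance in bases from the start site and each bar spans 1 element. The ERSE elements begin between positions −212 and −44 from the start site, Hsp90b1 has 2 of them, and the CRE of Ppp1r15a ends at position −5.

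The ER genes were expressed over a wide range of levels. Per kilobase of merged exons, the calcium-binding chaperone Calr was highest at 5684 normalized counts, followed by the disulfide isomerase P4hb (4313), Hsp90b1 (3965), Pdia3 (3803) and Hspa5 (3326). The sensors lay far lower on the same scale, at 232 for Atf6, 168 for Eif2ak3 and 103 for Ern1, while their downstream factor Xbp1 had 1018. At the bottom were Wfs1, an ER membrane protein of calcium handling, at 37.9, and Derl3, a derlin best known from professional secretory cells, at 17.7. Summed over the 36 genes, normalized counts ran from 129947 to 135783 in wild type and from 122858 to 129576 in knockout. Of the 35 pairs of neighbours in this order, 29 overlapped in their library values per kilobase, Hsp90b1 and Pdia3 among them. The 6 that did not were Hspa5 and Pdia6, Ssr3 and Xbp1, Sec61b and Hyou1, Eif2ak3 and Ern1, Ern1 and Wfs1, and Wfs1 and Derl3.

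Between the genotypes, the differences of most ER genes were small. The median log2 difference, knockout minus wild type on the log2(normalized count + 1) scale, was −0.01 over the 36 genes and 0.00 over all genes tested, with 17 genes above 0 and 19 below. Differences ran from −0.59 (Ppp1r15a) to 0.39 (Wfs1), and the median absolute difference was 0.07 against 0.11 over all genes tested. Limma called 0 of the 36 at an adjusted p under 0.05, where it called 0.00% of all genes tested. At an unadjusted p under 0.05 it had 1 of the 36 (2.78%) against 5.55% of all genes. With the replicate block that count was 5 of the 36 (13.9%) against 9.53% of all genes, with Hyou1, Edem1 and Edem3 above 0 and Dnajb9 and Ppp1r15a below. With the code series as a term it was also 5 (13.9%), against 11.3%, and the adjusted p passed for none in either fit. edgeR and DESeq2 also called 0 of the 36 (2 each at an unadjusted p under 0.05), against 0.00% and 0.490% of all genes. With the replicate number as a block DESeq2 called 0 of the 36 (1.24% of all genes), and limma called 0 in the DM22 libraries alone (0.0148%).

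The intervals say how large a difference could have gone unseen. The 95% interval of the difference lay within −0.5 to 0.5 on the log2 scale for 30 of the 36 genes (83.3%), which was so for 51.2% of all genes tested. The other 6 were Dnajb9, Sdf2l1, Derl3, Ppp1r15a, Ppp1r15b and Wfs1. The 36 genes and all genes tested were not matched for level in this or the other comparisons of size and spread. Spread between libraries was small: the highest library was under 1.5 times the lowest for 31 of the 36 genes, and for 57.7% of the genes with reads in every library. Within the 3 same-numbered pairs the median difference of the 36 was −0.07, 0.01 and 0.01. The difference had the same sign in all 3 pairs for 16 of the 36 genes (44.4%), 9 above 0 and 7 below, and for 32.6% of all genes tested. Among the 7 was P4hb, with −0.13, −0.13 and −0.14. The 9 genes whose promoter holds the ER stress response element had a median of −0.05, and the 27 others, which include those with no promoter in the table, one of −0.01.

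**Figure D2:**
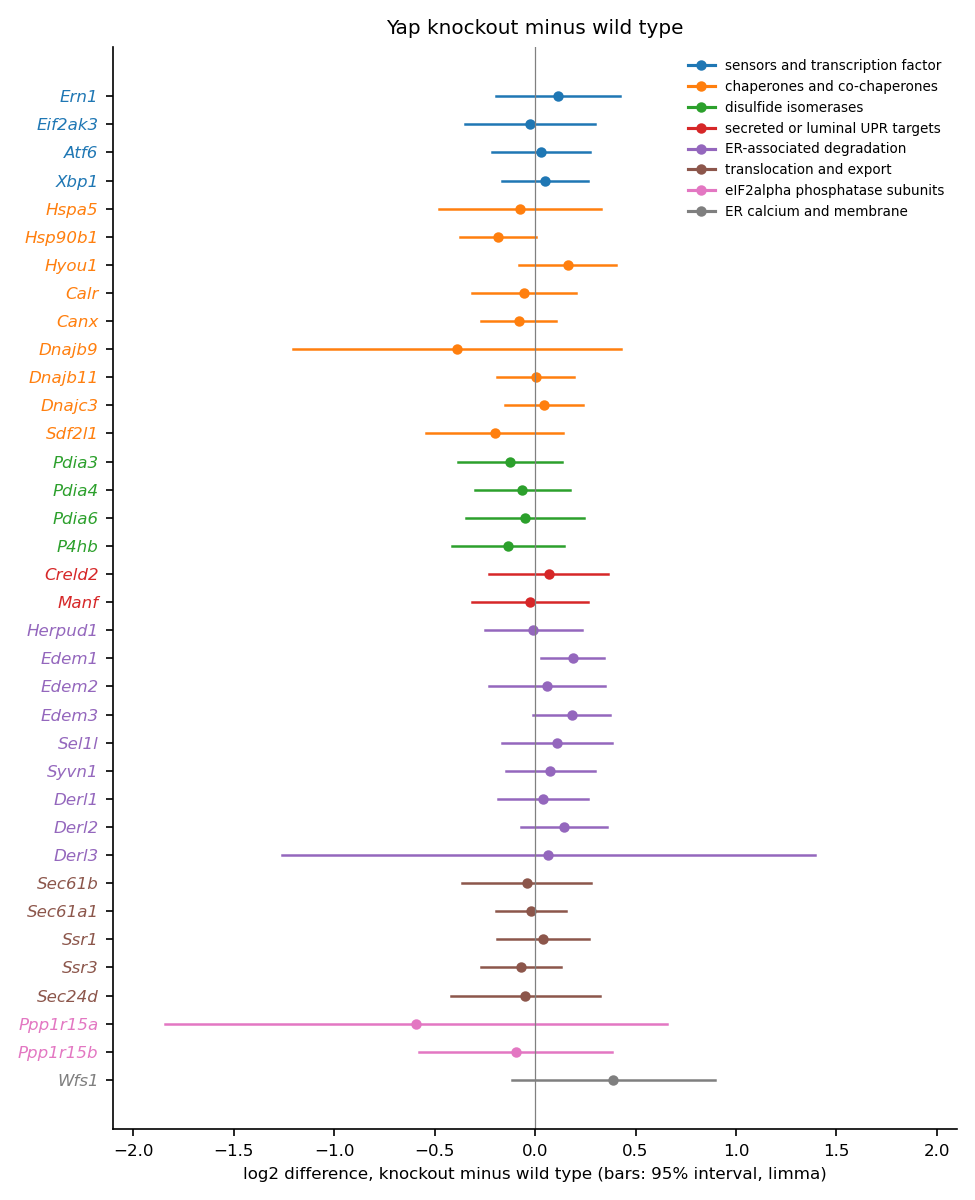
Log2 difference between knockout and wild type (horizontal axis, points) with the 95% interval from limma (bars) for each of the 36 genes, coloured by role. Most points lie within 0.2 of 0, and the widest intervals belong to Derl3, Ppp1r15a and Dnajb9.

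The 3 sensors and XBP1 overlapped between the groups. In order of library number, Ern1, the kinase and endonuclease IRE1, had wild-type values of 729, 789 and 907 and knockout values of 830, 794 and 1004 normalized counts. In each group library 3 was the highest, and the log2 difference was 0.11 (95% interval −0.19 to 0.42). Eif2ak3, the kinase PERK, had 824, 954 and 696 in wild type and 881, 772 and 762 in knockout, a difference of −0.03 (−0.35 to 0.30). Its knockout values all fell inside the wild-type range. Atf6, the membrane-bound transcription factor, had 1696, 1782 and 1517 in wild type and 1711, 1852 and 1533 in knockout, a difference of 0.03 (−0.22 to 0.27), with library 3 lowest in both groups. Xbp1 had 2646, 2190 and 2350 in wild type and 2361, 2548 and 2500 in knockout, a difference of 0.05 (−0.17 to 0.26). All of the knockout values of Xbp1 lay between the lowest and highest wild-type library.

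Among the 9 chaperones and co-chaperones, 3 differences were above 0 and 6 below. Hspa5 (BiP, chromosome 2, 34771970 to 34777547, plus strand), the central Hsp70 of the lumen and a standard readout of ER stress, had wild-type values of 11831, 15466 and 11159 and knockout values of 12027, 14085 and 10344 normalized counts. The order of the libraries was alike in both groups, with library 2 highest and library 3 lowest in each. Its log2 difference was −0.07 (95% interval −0.48 to 0.33), and it was 0.0047 under quantile normalization, 0.07 without wild-type library 2 and 0.04 without knockout library 3. Hsp90b1, the lumenal Hsp90 that folds integrins and Toll-like receptors, had 11811, 11967 and 11945 in wild type and 9846, 11283 and 10357 in knockout. Every knockout value was below every wild-type value, with a log2 difference of −0.18 ± 0.08 (SE) and a limma adjusted p of 0.894. Hyou1, a large Hsp70-related exchange factor for BiP, had 2826, 2962 and 3261 in wild type and 3032, 3406 and 3710 in knockout, a difference of 0.16 (−0.08 to 0.40).

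Sdf2l1, a small partner of BiP and its J proteins, had 302, 305 and 389 in wild type and 264, 306 and 292 in knockout. Wild-type library 3 stood above the other 5, and the difference was −0.20 (−0.54 to 0.14). The lectin chaperones Calr and Canx differed by −0.06 and −0.08 and the J proteins Dnajb11 and Dnajc3 by 0.00 and 0.04. The 4 disulfide isomerases, Pdia3, Pdia4, Pdia6 and P4hb, which form and rearrange disulfide bonds in new proteins, were all below 0, between −0.13 and −0.05. None passed the test by limma, edgeR or DESeq2 in any of the designs run, and each had overlapping groups.

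Of the 9 degradation genes, 8 had a difference above 0, against 49.0% of all genes tested. Of 19 further degradation genes outside the 36, 10 were above 0 and 9 below. Edem1, a mannosidase-like lectin that passes misfolded glycoproteins to degradation (chromosome 6, 108828641 to 108859356, plus strand), had wild-type values of 1809, 1944 and 1900 and knockout values of 2145, 2214 and 2072 normalized counts. All knockout libraries were above all wild-type libraries, by 0.19 ± 0.07 (SE) on the log2 scale, from a mean of 1884 ± 68.7 to 2144 ± 70.9 (SD, n = 3). It was the 1 gene of the 36 with an unadjusted p under 0.05 by limma, and its adjusted p was 0.850 (0.469 with the replicate block). Edem3, a related mannosidase, had 1248, 1369 and 1247 in wild type and 1366, 1537 and 1479 in knockout, a difference of 0.18 (−0.01 to 0.37) with groups that overlapped by a few counts. The retrotranslocation complex genes Sel1l, Syvn1, Derl1 and Derl2 differed by 0.11, 0.07, 0.04 and 0.14, and Herpud1, which organizes that complex, by −0.01.

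Edem1 (higher) and Hsp90b1 (lower) were the 2 genes of the 36 without overlap between the genotypes, against 11.0% of all genes tested (5.08% higher and 5.87% lower). Derl3 had the lowest level: 33.6, 8.62 and 31.2 in wild type and 20.5, 19.8 and 26.6 in knockout, where 3 reads equal 2.47 to 3.90 normalized counts. Its difference of 0.07 had an interval from −1.26 to 1.39, so a difference of either sign within it could not be told from the spread between libraries. The lowest value came from wild-type library 2. Of 7 plasma and B cell markers in the table, 1 passed the filter (Sdc1, which keratinocytes also make), Ms4a1 had no read in any library and the plasma cell gene Igj had 0 to 3.79 normalized counts.

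The 5 translocation and export genes differed by −0.07 (Ssr3, a subunit of the translocon-associated complex) to 0.04 (Ssr1, another). They include Sec61a1 and Sec61b of the protein-conducting channel and Sec24d, a cargo adaptor of the COPII coat. The neurotrophic factor Manf and the isomerase Creld2, ER stress targets of the lumen that can be secreted, differed by −0.03 and 0.07. Wfs1 had wild-type values of 103, 162 and 112 and knockout values of 153, 160 and 172 normalized counts. A single wild-type library reached the knockout range, and the difference of 0.39 (−0.12 to 0.89) was the highest of the 36 with a limma adjusted p of 0.933.

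**Figure D3:**
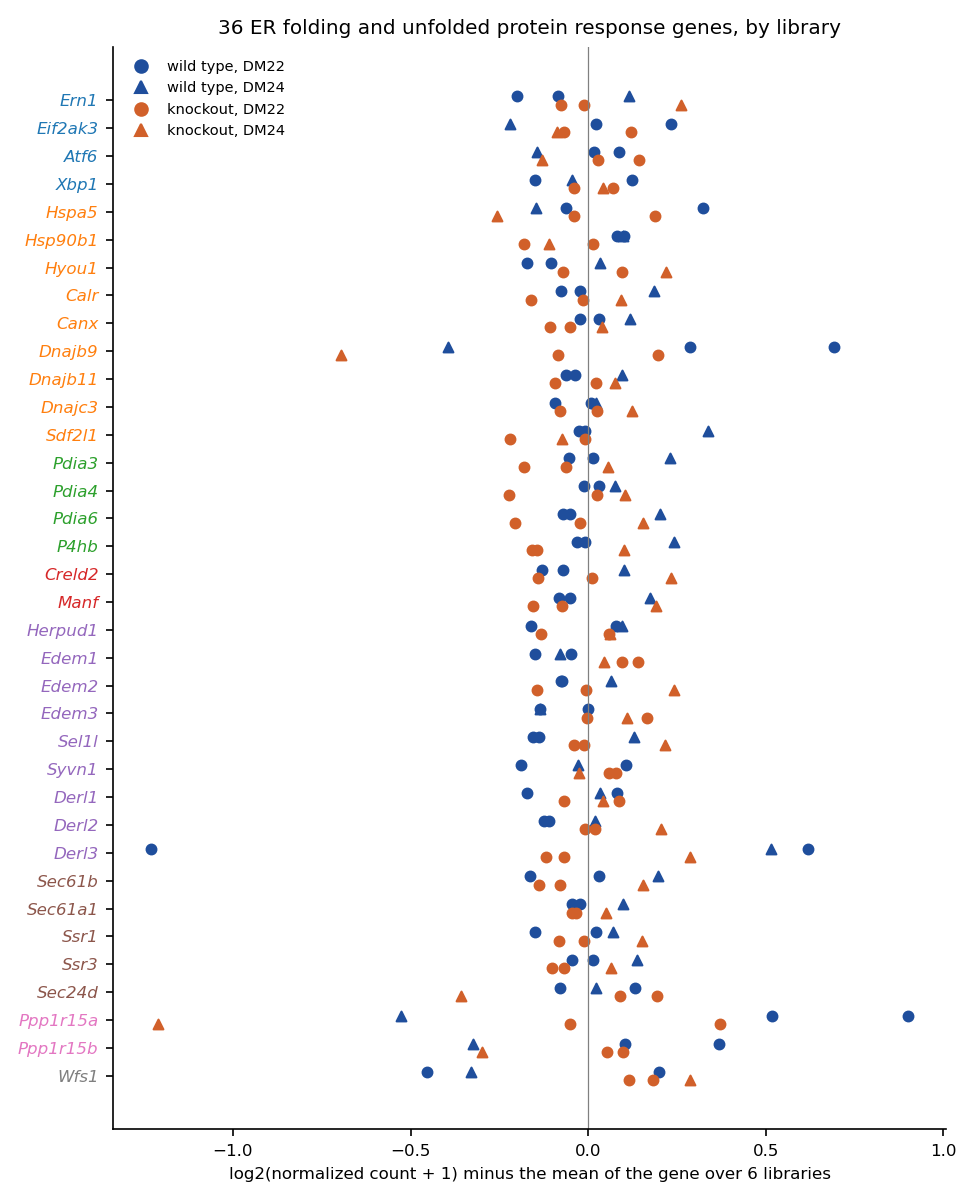
Log2(normalized count + 1) of each of the 36 genes in each library minus the mean of the gene over the 6 libraries (horizontal axis); colour gives the genotype and the marker shape the code series. Most genes stay within 0.3 of their mean, while Ppp1r15a, Dnajb9 and the low-count gene Derl3 spread furthest.

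Ppp1r15a and Dnajb9 had the lowest differences of the 36, and for both the difference between the code series was larger in size (−1.30 and −0.82, DM24 minus DM22). Ppp1r15a (GADD34, chromosome 7, 45522916 to 45526268, minus strand), the stress-induced subunit that directs protein phosphatase to eIF2alpha, had wild-type values of 6913, 9019 and 3348 and knockout values of 6249, 4661 and 2085 normalized counts. Library 3 was the lowest in each group, and the groups overlapped. Its log2 difference was −0.59 ± 0.51 (SE), and the same-numbered pairs gave −0.15, −0.95 and −0.68. Limma's adjusted p was 0.989, or 0.433 under the replicate block and 0.291 once the code series entered the model. DESeq2 called it lower when the code series entered the model (adjusted p = 0.0191), the 1 call among the 36 in a fit that called 2.22% of all genes, and 1.46% as lower. Plain DESeq2 (adjusted p = 0.9997) and DESeq2 under the block (adjusted p = 0.0655) did not. The size of its difference rested on single libraries: leaving out knockout library 3 gave −0.14, wild-type library 2 −0.29, knockout library 1 −0.93 and wild-type library 3 −1.01.

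Dnajb9 (ERdj4, chromosome 12, 44205559 to 44210326, minus strand), a J protein that returns BiP to IRE1 and is a classical XBP1 target, had 1073, 1421 and 669 in wild type and 1007, 829 and 542 in knockout. Library 3 was again the lowest of each group. The log2 difference of −0.39 ± 0.34 (SE) ran from −0.14 without wild-type library 2 or knockout library 3 to −0.68 without wild-type library 3, and no test called it. Ppp1r15b, the constitutive counterpart of Ppp1r15a, had 2739, 3286 and 2033 in wild type and 2645, 2726 and 2071 in knockout, a difference of −0.10 (−0.58 to 0.38).

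The promoter window of Ppp1r15a holds a cyclic AMP response element, TGACGTCA, which CREB and ATF family factors recognize. It is shown because Ppp1r15a differed most in level between libraries, and it was searched after those values were seen. The element was in 1 of the 30 genes with a window and in 1.79% of all windows. TGACGTGG, an element read by XBP1 and ATF6 that shares the first 6 bases, was in 1 of the 30 (Sec24d) and in 0.676% of all windows.
Ppp1r15a, chr7:45526269-45526285, minus strand: tccggTGACGTCAgcac

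**Figure D4:**
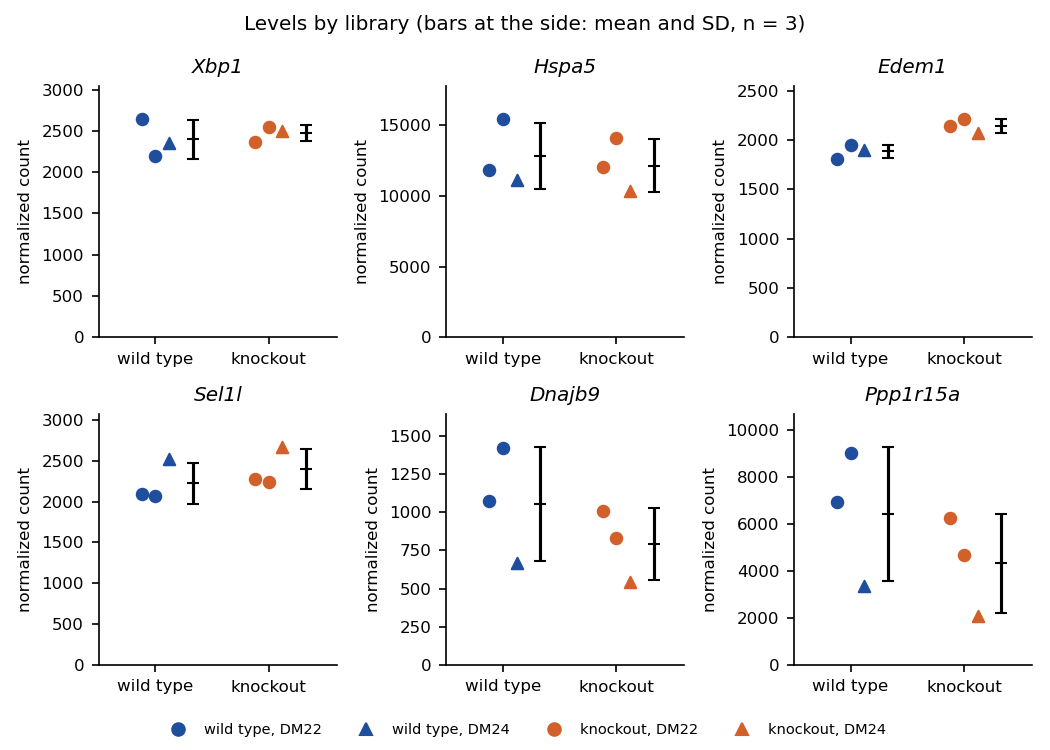
Normalized counts (vertical axes, from 0) of 6 genes in each library by genotype, with the mean and SD (n = 3) of each group at the side; marker shape gives the code series. Xbp1 and Hspa5 overlap between the groups, Edem1 does not, and the DM24 libraries are highest for Sel1l and lowest for Dnajb9 and Ppp1r15a.

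Along the code series many of the ER genes were higher in the DM24 libraries. In 17 of the 36 genes (47.2%) both DM24 libraries were above all 4 DM22 libraries, against 19.0% of all genes tested. In 6 (16.7%) both were below, a share near the 20.2% of all genes tested. In either direction it was 63.9% of the 36 against 39.2% of all genes tested, and the remaining ER genes overlapped between the series. The 17 were Ern1, Calr, Canx, all 4 disulfide isomerases, Dnajb11, Creld2, Manf, Edem2, Sel1l, Derl2, Sec61b, Sec61a1, Ssr1 and Ssr3. The 6 were Eif2ak3, Atf6, Hspa5, Dnajb9, Ppp1r15a and Ppp1r15b. The median log2 difference, DM24 minus DM22 in a fit that held genotype, was 0.12 for the 36 genes and 0.00 for all genes tested.

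Limma called 4 of the 36 (11.1%) along the code series, 1 higher and 3 lower, against 6.75% of all genes tested. The background was 2.68% for higher and 4.07% for lower. Ppp1r15a had a log2 difference of −1.30 (95% interval −1.70 to −0.91, adjusted p = 0.0186), Dnajb9 one of −0.82 (−1.16 to −0.47, adjusted p = 0.0339) and Ppp1r15b one of −0.47 (−0.70 to −0.24, adjusted p = 0.0433). Sel1l, the scaffold of the retrotranslocation complex, had 2091, 2064, 2281 and 2236 normalized counts in the DM22 libraries and 2515 and 2674 in the DM24 libraries, a difference of 0.26 (0.13 to 0.39, adjusted p = 0.0491). edgeR called the same 4 genes (6.39% of all genes). DESeq2 called 8 of the 36 (15.0% of all genes), adding Pdia3, Pdia6, P4hb and Manf, each higher. P4hb, the classical disulfide isomerase, had 12199, 12017, 11119 and 11010 normalized counts in the DM22 libraries and 14527 and 13165 in the DM24 libraries. Pdia3, the isomerase that works with calnexin and calreticulin, had 10594, 10107, 9262 and 10039 in DM22 and 12304 and 10905 in DM24. In both isomerases, as in the next 2 genes, the lower DM24 library was above the highest DM22 library. Pdia6 had 4494, 4438, 4040 and 4583 in DM22 and 5357 and 5183 in DM24. Manf had 1261, 1288, 1199 and 1269 in DM22 and 1506 and 1525 in DM24. Ppp1r15a was called by limma with each of the 4 DM22 libraries left out in turn, and Sel1l with none of them left out. Without knockout library 1 or 2 Ppp1r15a was the 1 call, and without wild-type library 1 or 2 Dnajb9 and Ppp1r15b were called with Ppp1r15a.

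**Figure D5:**
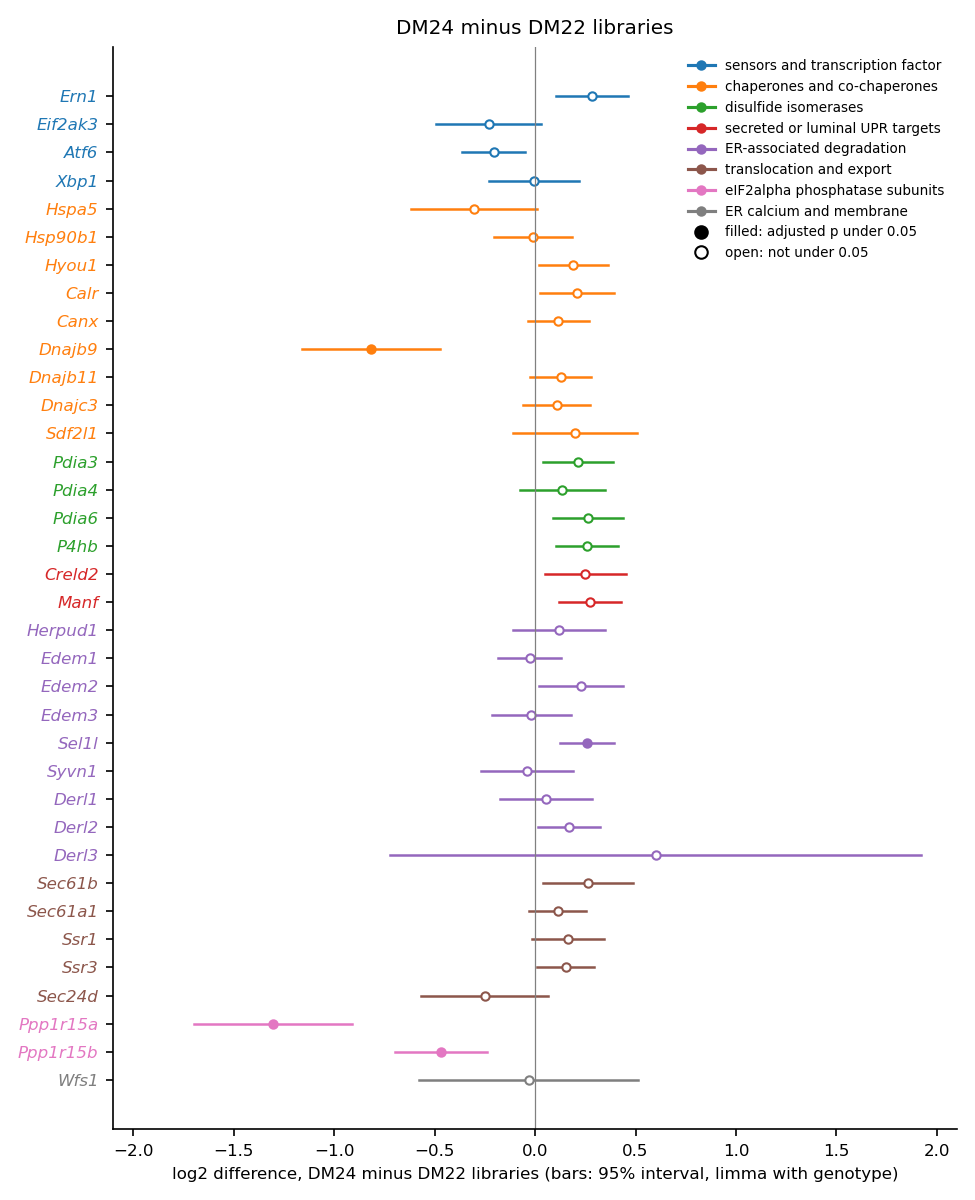
Log2 difference between DM24 and DM22 libraries (horizontal axis, points) with the 95% interval from limma in a fit with genotype (bars); filled points passed at an adjusted p under 0.05. Sel1l is the filled point above 0, and Ppp1r15a, Dnajb9 and Ppp1r15b are the filled points below it.

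Other transcripts moved along the same line. The 26 handling and immediate early stress genes, which tissue dissociation is known to induce, summed to 635545 to 1063720 normalized counts in the DM22 libraries and to 373827 and 187665 in the DM24 wild-type and knockout libraries. All 26 had a difference below 0 between the genotypes (median −0.62), as did 6967 of all 13671 genes tested. Cyr61, a CCN family gene, had the largest (−1.78). Whether handling, the loss of Yap or something else lowered any of these genes was not tested. Limma and edgeR called 0 of the 26 between the genotypes (0.00% of all genes tested). DESeq2 called 1 lower without a term, 13 with the block and 14 in the fit with the code series that called Ppp1r15a. Those DESeq2 fits called 0.490%, 1.24% and 2.22% of all genes, and Cyr61 was among the 13 and the 14. Along the code series 25 of 26 had a difference below 0 (DM24 minus DM22), and limma called 19 lower (4.07% of all genes tested). The 8 sebocyte markers summed to 16601 to 19604 in DM22 and 20812 and 21293 in DM24, the 6 markers of differentiated keratinocytes in the table to 24848 to 36436 and 45749 and 103378, and the 6 fibroblast markers to 5402 to 9427 and 3237 and 1612. Along the series limma called 3 of the sebocyte and 0 of the keratinocyte markers higher, and DESeq2 called 5 and 3. The fibroblast sum follows Dcn, which limma called lower in DM24. Col1a1, Col1a2 and Col3a1 were each above all DM22 libraries in both DM24 libraries, and DESeq2 called 2 markers of that list higher. The sum of the 8 basal and tumour markers, mostly keratins, overlapped between the series at 460130 to 630477, while limma called 2 of them, Trp63 and Ptch1, lower in DM24. Their part in the results for Ppp1r15a, Dnajb9 and the higher set was not tested, and in bulk libraries fewer cells of a type and less RNA per cell cannot be told apart.

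The rest of the pathway was close to the members. Of 105 further genes in 7 lists, 104 were tested, with 47 differences above 0, 57 below and a median of −0.02 between knockout and wild type, and 7 (6.73%, against 11.0% of all genes tested) did not overlap between the groups. Limma and edgeR called 0 of the 104, limma had 2 at an unadjusted p under 0.05 (Chac1 and Nupr1, where 5.55% of all genes had such a p), and DESeq2 called 1, lower (Nupr1, where 0.490% of all genes were called). Translocon and signal peptide processing genes had a median of −0.03 over 14 genes, the oligosaccharyltransferase and lectin cycle −0.02 over 16, other oxidoreductases and co-chaperones −0.07 over 20 and other degradation genes 0.00 over 19. The COPII coat had 9 of 11 above 0 with a median of 0.07, and Sec16a, which marks ER exit sites, did not overlap between the groups (0.12 ± 0.06, SE). Other transducers had a median of 0.02 over 12, where Creb3l1, an ATF6-related factor of secretory cells, had the largest difference (0.65 ± 0.49, SE).

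The PERK-ATF4 arm was the list with the widest differences, from −1.35 to 0.56 over 12 genes with a median of −0.02; its member Atf3 is also in the stress list. Chac1, a glutathione-degrading target of the arm, had wild-type values of 139, 121 and 71.5 and knockout values of 29.4, 61.8 and 37.9 normalized counts. All knockout values were below all wild-type values, and the difference of −1.35 ± 0.38 (SE) passed DESeq2 once the code series entered the model (adjusted p = 0.0378), but neither plain DESeq2 (adjusted p = 0.170) nor DESeq2 under the block (adjusted p = 0.144). Nupr1, a stress-induced nuclear protein, had 331, 352 and 333 in wild type and 145, 173 and 183 in knockout and was called lower by DESeq2 in all 3 designs, with a limma adjusted p of 0.429. Atf4 itself differed by −0.11 ± 0.28 (SE), Ddit3 (CHOP) by 0.05 ± 0.28 (SE) and Trib3 by 0.32 ± 0.23 (SE), none past limma.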

How the data were processed

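RNA was column-purified and made into TruSeq libraries, per the labels' protocols, which mention cells taken 6 or 9 weeks after tamoxifen (each sample's own label gives 6). The submitters' processing notes name STAR 2.5, DESeq2 1.18.1 and mm10 (GRCm38); counter, annotation and strand setting are not given in the sources used here. The deposited signal is read counts that the authors divided by 1 size factor per library: 100% of the values in every library were whole reads times 1 step (tolerance 0.001 reads), so the reads were recovered. Exons of 12 of the 36 genes overlap another gene in GENCODE M21, 8 of them 1 listed in the table; without strand such reads cannot be told apart (Tulp2, opposite Ppp1r15a, had 14.0 to 46.0 normalized counts). Limma 3.58.1 (R 4.3.3; trend, robust, two-sided, Benjamini-Hochberg over 13671 genes, threshold 0.05) was run on log2(normalized count + 1), which understates changes of low genes. edgeR 4.0.16 and DESeq2 1.42.0 were run on the recovered counts, and the fits were also run on simulated data. The simulated spread was estimated with the code series in the model. It therefore does not show how fits without that term behave on these libraries, nor why the tools called different numbers of genes. Exact permutation of 3 against 3 cannot go below p = 0.1, so none was run. Same-numbered libraries deviated together (correlations 0.333, 0.327 and 0.694), each over 0.1, and the replicate numbers of the labels were taken as pairs. Inside DM22 the crosses passed too, at 0.505 (knockout library 1, wild-type library 2) and 0.260 (knockout library 2, wild-type library 1). The correlations therefore do not decide how the DM22 libraries pair. Values in every library are given for the sensors, Xbp1, Hspa5, Ppp1r15a, the 8 largest differences, non-overlapping genes and called genes (at most 8). The members and lists were chosen with earlier results of these data known. The floor of 3 reads covers counting error only.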

Additional observations from a re-analysis of the deposited data

How the results depend on the processing

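For knockout against wild type, limma called 0 genes, and also 0 with the replicate block, the code series as a term, a pseudocount of 4, no filter, a mean of at least 50 or quantile normalization. It called 2 in the DM22 libraries alone and 0 to 1 with 1 library left out. DESeq2 called 67 without a term, 169 with the replicate block and 303 with the code series, and edgeR 0 in each design. Of the 36 ER genes 0 were called in these settings, except 1 (Ppp1r15a) by DESeq2 with the code series; the replicate block changed no call among them. Their median difference ran from −0.033 to 0.042 with 1 library left out. Of the genes given by library, 4 with differences near 0 changed sign: with 1 library left out Eif2ak3 ran from −0.14 to 0.086, Atf6 from −0.038 to 0.10, Xbp1 from −0.015 to 0.12 and Hspa5 from −0.19 to 0.069, and Hspa5 was 0.0047 with quantile normalization. Along the code series limma called 923 genes, DESeq2 2056, and limma 105 to 1492 with 1 DM22 library left out. For the 36 these counts were 4, 8 and 1 to 3. The cause of these shifts was not tested. Whether depth limits a result was not tested. The shallowest libraries were those of DM24, so depth cannot be told apart from the code series. Having 2 DM24 libraries limits every value along the code series.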

Other observations

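Along the code series, limma called 6.75% of all genes tested. It called 1 of 16 oligosaccharyltransferase and lectin cycle genes, 1 of 20 other oxidoreductases and co-chaperones and 1 of 12 other transducers. In the PERK-ATF4 arm it called 1 higher and 2 lower of 12, and in the translocon, other degradation and COPII lists 0. In the translocon list 13 of 14 genes were above 0 (DM24 minus DM22, median 0.12), and in the oligosaccharyltransferase list 13 of 16 (0.17). The oxidoreductase and COPII lists had 13 of 20 (0.12) and 8 of 11 (0.05). The degradation, transducer and PERK-ATF4 lists had 10 of 19 (0.01), 5 of 12 (−0.11) and 6 of 12 (−0.07). Of the 36 genes 23 were above 0 (0.12). DESeq2, which called 15.0% of all genes, called 3 translocon and 4 oligosaccharyltransferase genes higher and 0 to 2 in each other list. Ero1l, the oxidase that recharges the disulfide isomerases, had 792 to 1097 normalized counts in the DM22 libraries and 1548 and 1758 in the DM24 libraries, a log2 difference of 0.83. Ddost, a subunit of the oligosaccharyltransferase, was higher by 0.27, and Nfyb, a subunit of the factor that binds the CCAAT end of the ER stress response element, had 1688 to 1986 in DM22 and 1381 and 1178 in DM24, a difference of −0.53. In the PERK-ATF4 arm limma called Atf4 (−0.66) and Atf3 (−1.97) lower and Stc2 (1.74) higher in DM24.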
